A study of Homo sapiens with 12 samples.

Results

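Mitochondrial ribosomal protein genes were followed in 2 uveal melanoma cell lines, MUM2B and OCM1, that were made to overexpress CANT1 (CASC15-NT1), a long noncoding RNA from the CASC15 locus, or were wild type. The members were all genes whose platform symbol is MRPL or MRPS followed by a number and an optional letter A to C, and that had a probe set naming 1 gene only. This gave 74 genes of 18132, read on 164 probe sets, of which the brightest per gene was used. By the position of the protein, 49 belong to the large and 25 to the small subunit of the mitochondrial ribosome, with MRPS18A and MRPS30 counted in the large subunit, and 45 have bacterial relatives while 29 are found only in mitochondrial ribosomes. MRPL23, MRPL53 and MRPS24 were present only on probe sets naming several genes and were not analysed here.

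Expression was measured on 12 Affymetrix PrimeView arrays, 3 each of MUM2B CANT1 cells, MUM2B wild type cells, OCM1 CANT1 cells and OCM1 wild type cells. The growth label of the 4 replicate 1 arrays describes puromycin selection of the CANT1 cells, and that of the 8 arrays of replicates 2 and 3 names medium with 10% serum, so the arrays form 2 labelled sets. The replicate 1 titles call the comparison cells wild type, and the genotype label of replicates 2 and 3 calls them control, with wild type cells named as controls in their treatment label. They are called wild type below. The labels name no empty vector and do not say that replicates are separate cultures, so each p-value reflects array-to-array spread alone, possibly technical, and an effect of CANT1 cannot be told apart from one of vector or selection. The single CASC15 probe set had a signal of 12.9 to 18.0 on the 12 arrays. Whether it reads CANT1 is not known, so the overexpression was not checked. The number of arrays limits the precision.

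The mitochondrial ribosome translates the few proteins encoded by mitochondrial DNA, all of them subunits of the respiratory chain and of ATP synthase. Its RNAs come from mitochondrial DNA, whereas its proteins are encoded in the nucleus, made in the cytosol and imported. The small subunit decodes the messenger RNA, and the large subunit holds the peptidyl transferase centre and the exit tunnel.

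Some arrays stand apart or lie close to the other label. Replicates 2 and 3 of a group correlated at 0.9941 to 0.9957 over all tested genes. The MUM2B CANT1 replicate 1 array correlated at 0.967 with the CANT1 and 0.971 with the wild type arrays of replicates 2 and 3, and the MUM2B wild type replicate 1 array at 0.953 with the CANT1 and 0.928 with the wild type arrays. The same order held in OCM1, at 0.955 with the CANT1 and 0.961 with the wild type arrays for the CANT1 replicate 1 array, and at 0.831 and 0.816 for the wild type one. Labels were kept as given. Whether any were exchanged was not tested, and an exchange of the replicate 1 labels within a line would turn the sign of that line's replicate 1 differences. The OCM1 wild type replicate 1 array had a mean correlation of 0.828 with the arrays of its line, against 0.936 to 0.978 for the other 11. The ACTB 3′ to 5′ difference, a sign of RNA quality or labelling, was 2.15 to 2.51 (log2) on replicate 1 and 0.47 to 0.91 on replicates 2 and 3. Of 11 pigment cell markers with a probe set, 7 in MUM2B CANT1 and 5 in MUM2B wild type cells had a signal under 100 on all 3 arrays, MLANA, TYRP1, S100B, EDNRB and OCA2 in both. The summed signal of those 11 markers was 846.5 to 982.2 in MUM2B CANT1 and 835.2 to 1190 in MUM2B wild type cells. It was 81830 to 94442 in OCM1 CANT1 and 15019 to 84482 in OCM1 wild type cells, lowest on the replicate 1 array. The part of these differences in the results below was not tested. Results are therefore given for each labelled set and for all arrays.

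All 74 members had a scaled signal of at least 100 on each of the 12 arrays, so none was lost to the filter on dim genes. The members nearest to it were MRPL2, of the peptidyl transferase region, with 199.3 to 682.4, MRPL4 with 206.7 to 1448, and MRPL1 with 259.2 to 1283. MRPL51 (6909 to 12362), MRPL36 (6605 to 9318) and MRPL3 (5416 to 8500) gave some of the highest signals. Signals of different probe sets do not rank the genes.

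In MUM2B cells of replicates 2 and 3, members were lower with CANT1. Of 74 members 23 fell and 0 rose at an adjusted p of 0.05 (31.1% of the members), where 10.6% of all 12116 tested genes fell and 14.4% rose. The members' median difference was −0.23 (log2), against 0.0045 over all tested genes, and 66 members were below zero. Those that fell were 13 of 49 large and 10 of 25 small subunit genes, and 18 of 45 genes with bacterial relatives and 5 of 29 found only in mitochondria. Each of these differences is CANT1 minus wild type on the log2(signal + 32) scale, and ± is the standard error. Fewer cells of a type and less RNA per cell cannot be told apart here. The test was limma fitted to the 8 arrays with 1 term per group. The count was 2 without CANT1 replicate 3 or without wild type replicate 2, and 15 without wild type replicate 3.

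MRPL1, the protein of the stalk that helps release spent transfer RNA, changed most. Its signal in MUM2B was 617.5 and 373.2 on the CANT1 arrays of replicates 2 and 3, against 1283 and 1169 on the wild type arrays. Both CANT1 values were lower, but MRPL1 and the other named members were picked by their change on these same arrays. The difference was −1.29 ± 0.17 (limma adjusted p = 0.00082), 2.45-fold lower. It kept a p below the threshold in all 18 alternative fits, and its other probe set gave −1.35. On replicate 1 the order was the opposite, with 968.1 on the CANT1 array and 259.2 on the wild type array, a difference of 1.78.

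MRPL20, which enters the large subunit early in its assembly, had 3555 and 2947 on the CANT1 arrays, against 5388 and 4860 on the wild type arrays. The difference was −0.66 ± 0.11 (limma adjusted p = 0.0025). MRPS25, found only in mitochondrial ribosomes, had 817.1 and 666.6 on the CANT1 arrays, against 1237 and 952.4 on the wild type arrays. It fell by 0.54 ± 0.13 (limma adjusted p = 0.014), but its 5 probe sets ran from −0.54 to 0.098, so they disagree. MRPS12, which takes part in decoding, had 1860 and 1580 on the CANT1 arrays, against 2527 and 2282 on the wild type arrays. It fell by 0.48 ± 0.11 (limma adjusted p = 0.0083). MRPS11, on the small subunit's platform, fell by 0.47 ± 0.12 (limma adjusted p = 0.016), with another probe set of the opposite sign. MRPL20 passed in every alternative fit, while MRPS25, MRPS12 and MRPS11 did not pass without CANT1 replicate 3 or without wild type replicate 2, nor MRPS25 and MRPS11 with the mean of all probe sets. Among the 23 members, 17 had other bright probe sets, and 27 of those 32 probe sets had the same sign.

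**Figure D1:**
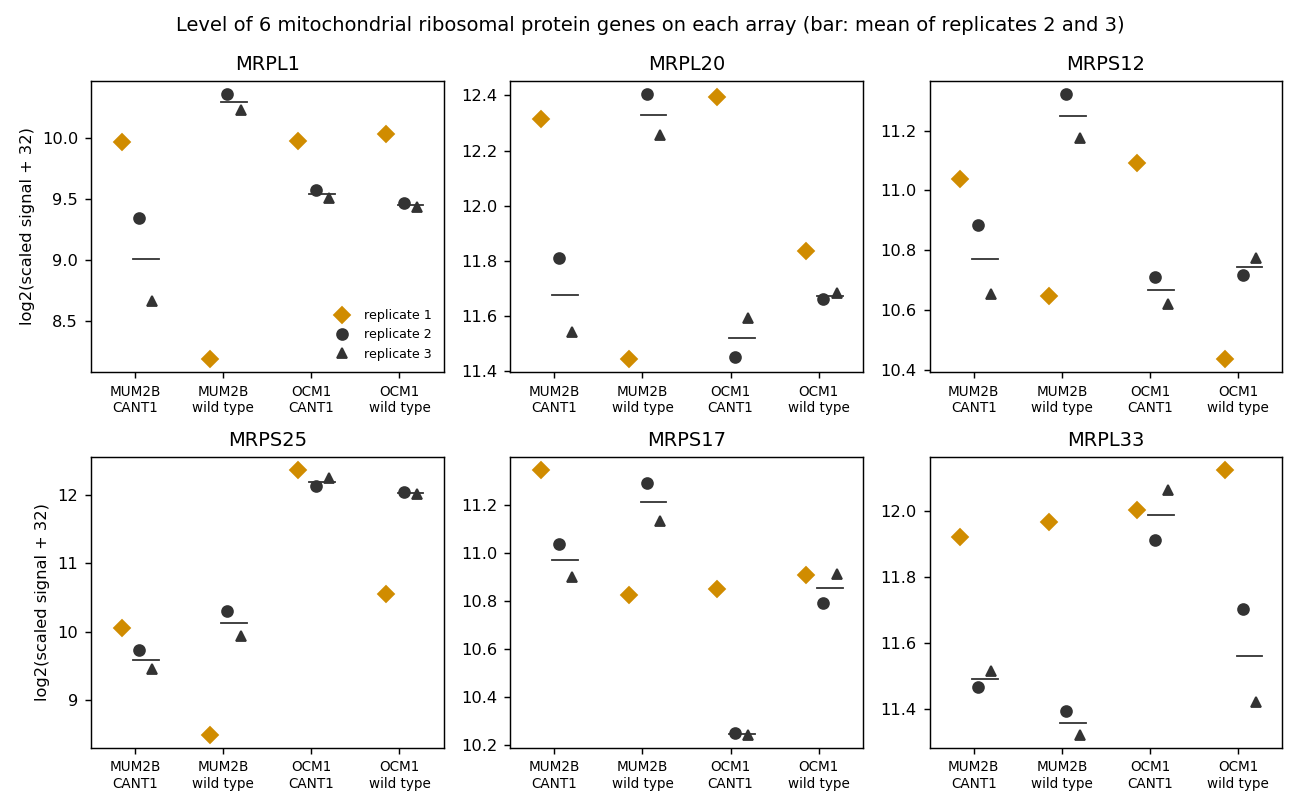
Level, as log2(scaled signal + 32), of 6 members on each of the 12 arrays by group, with replicate 1 as diamonds, replicate 2 as circles, replicate 3 as triangles and the mean of replicates 2 and 3 as a bar. In MUM2B the MRPL1 points of replicates 2 and 3 lie at 9.34 and 8.66 with CANT1, below 10.36 and 10.23 in wild type, while its replicate 1 point is higher with CANT1.

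In OCM1 cells of replicates 2 and 3, 14 of 74 members fell and 3 rose with CANT1 (18.9% and 4.05%), where 9.62% of all tested genes fell and 13.7% rose. The median over the members was −0.12, against 0.038 over all tested genes, and 55 members were below zero. Of the 14 that fell, 10 were large and 4 small subunit genes. They were 7 of 45 genes with bacterial relatives and 7 of 29 found only in mitochondria, the other order of shares than in MUM2B. These splits were not tested in either line. MRPS17, which binds early to the small subunit RNA, had 1186 and 1181 on the CANT1 arrays, against 1740 and 1896 on the wild type arrays. It fell by 0.61 ± 0.10 (limma adjusted p = 0.0016). MRPL32, a large subunit protein that is trimmed by a mitochondrial protease before assembly, had 1034 and 1226 with CANT1, against 1772 and 1508 in wild type, and fell by 0.53 ± 0.12 (limma adjusted p = 0.0098). MRPS30 (−0.45 ± 0.11), MRPS35 (−0.42 ± 0.090) and MRPL12 (−0.39 ± 0.11), a stalk protein, also fell. The 3 that rose were MRPL33 (0.43 ± 0.11), MRPL43 (0.32 ± 0.098) and MRPS14 (0.31 ± 0.091). MRPL33 had 3825 and 4250 on the CANT1 arrays, against 3297 and 2710 on the wild type arrays. All 17 other bright probe sets of the members that changed had the same sign. MRPS17 passed in every alternative fit, and the other 7 named members each failed to pass with 1 or more OCM1 arrays left out. The count of 17 was 2 without CANT1 replicate 2, 5 without wild type replicate 2, and 7 without CANT1 replicate 3 or without wild type replicate 3.

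MRPL12, MRPL27, MRPL47 and MRPS18B fell in both lines, 28.6% of the 14 in OCM1 and 17.4% of the 23 in MUM2B, and 51 members were below zero in both. These are 5.41% and 68.9% of the members, where 1.82% of all tested genes fell in both lines and 23.5% were below zero in both. The members' shares were already larger in each line alone, at 31.1% in MUM2B and 18.9% in OCM1. Those of all tested genes were 10.6% and 9.62%. An overlap beyond the shares of the single lines was not tested. MRPL1 did not pass in OCM1, where its signal was 729.9 and 695.7 with CANT1, against 675.8 and 659.9 in wild type (0.090 ± 0.17).

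The difference between the effects in the lines was tested directly. In OCM1 minus MUM2B, 7 of 74 members were higher and 1 was lower (11.2% and 10.6% of all tested genes), so the members' shares were not above the background. MRPL1 differed most (1.38 ± 0.24, limma adjusted p = 0.0031), followed by MRPS25 (0.69 ± 0.19), MRPS14 (0.61 ± 0.13), MRPS11 (0.57 ± 0.17) and MRPL50 (0.55 ± 0.17). MRPS30, with −0.45 in OCM1 and no call in MUM2B, differed by −0.47 ± 0.15. MRPL1 and MRPS14 passed in every alternative fit, while MRPS25, MRPS11, MRPL50 and MRPS30 did not. The count of 8 was 2 without MUM2B CANT1 replicate 3 or without MUM2B wild type replicate 2, 4 without OCM1 CANT1 replicate 2, and 3 without any 1 of the other OCM1 arrays.

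**Figure D2:**
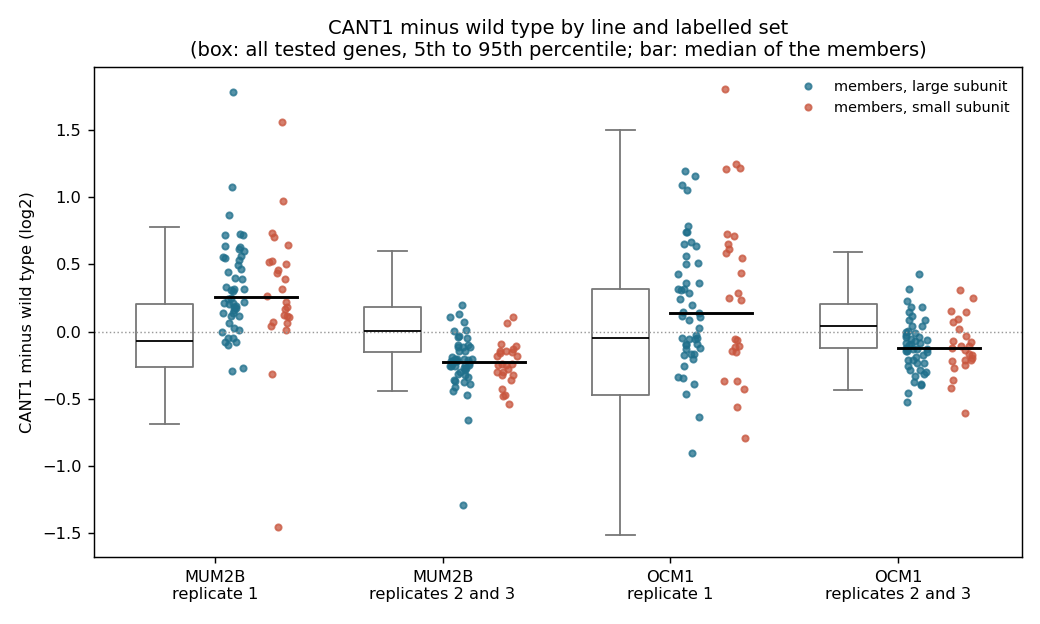
CANT1 minus wild type (log2) for the 74 members by line and labelled set, as points split by subunit with a bar at the members' median, beside a box for 12727 tested genes (median and quartiles, with whiskers at outer percentiles). In MUM2B the median of the members is 0.26 on replicate 1 and −0.23 on replicates 2 and 3.

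On replicate 1, which has 1 array per group, the members lay mostly on the other side of zero in MUM2B, with the labels as given. There 64 of 74 members were above zero, with a median of 0.26, where 39.6% of all tested genes were above zero. All 23 members that fell on replicates 2 and 3 were above zero on replicate 1, with a median of 0.50. Only 8 of 74 members had the same sign in both sets. The matching shares of all tested genes were not computed in either line. Over members the 2 sets' differences had a correlation of −0.69, and over all 12727 tested genes −0.618, which is a description, since genes share their arrays. The opposite order in MUM2B was therefore not particular to the members. In OCM1 42 members were above zero on replicate 1 (median 0.14), where 43.1% of all tested genes were, and 31 of 74 had the same sign in both sets. The correlation between the sets was 0.115 over members and −0.219 over all tested genes, and of the 14 that fell on replicates 2 and 3, 8 were above zero and 6 below.

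The difference between the sets was fitted with limma. Each group has 1 replicate 1 array, so the spread came from replicates 2 and 3 alone and that of replicate 1 was not measured. The standard errors and counts below hold only if replicate 1 varies as replicates 2 and 3 do, and are given as a description. In MUM2B the effect on replicate 1 minus that on replicates 2 and 3 was higher in 39 members and lower in 1, where 17.7% and 18.1% of all tested genes were called. MRPL1 differed by 3.07 ± 0.30, MRPS25 by 2.10 ± 0.23, MRPL20 by 1.52 ± 0.19, MRPS11 by 1.45 ± 0.21 and MRPL24 by 1.29 ± 0.20. MRPS6 went the other way (−1.56 ± 0.19), with 1386 on the CANT1 and 3846 on the wild type array of replicate 1. Other bright MRPS25 probe sets ran from −0.14 to 0.43 on replicate 1 and from −0.24 to 0.098 on replicates 2 and 3. The other bright MRPL20 probe set had −0.10 and −0.22 on these sets. Another MRPS11 probe set had −0.27 and 0.19, the opposite order, while the gene's remaining bright ones had the order of the one used. Over the alternative fits the lowest values were 0.56 for MRPS25, 0.55 for MRPL20 and 0.66 for MRPS11. In OCM1 27 members were higher and 6 lower (20.5% and 27.6% of all tested genes). MRPS25 (1.65 ± 0.23), MRPS28 (1.43 ± 0.17), MRPL44 (1.43 ± 0.16), which has a ribonuclease fold, MRPL35 (1.25 ± 0.16) and MRPS35 (1.14 ± 0.16) were highest. MRPL55 (−0.82 ± 0.16), MRPL43 (−0.71 ± 0.17), MRPS26 (−0.69 ± 0.16), MRPL33 (−0.55 ± 0.19) and MRPS14 (−0.46 ± 0.16) were lowest. Another bright MRPL33 probe set had 0.56 on replicate 1 and 0.32 on replicates 2 and 3, the opposite order. So did another of MRPL43, with 0.52 and 0.39, while the remaining bright ones of both genes had the order of those used. Over the alternative fits MRPL33 ran from −0.69 to −0.18, and the lowest values were 0.78 for MRPS25 and 0.78 for MRPL35. The OCM1 values rest on the wild type replicate 1 array, which stands apart.

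**Figure D3:**
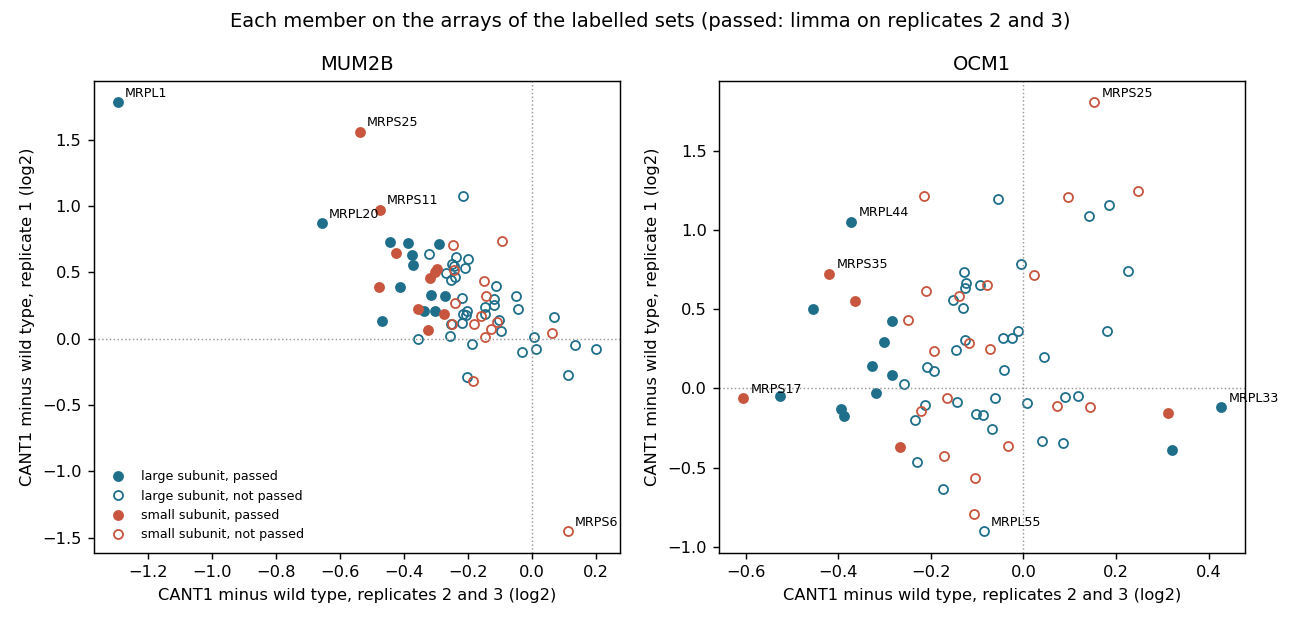
Each member's CANT1 minus wild type difference (log2) on replicates 2 and 3 (x axis) and on replicate 1 (y axis), for MUM2B and OCM1, filled where limma called it on replicates 2 and 3. In MUM2B the 23 filled points lie left of zero and above zero on the y axis.

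With all 12 arrays and a term for the set, no member passed in either line. The counts were 0 of 74 in MUM2B, where 0% of all genes were called in each direction, and 0 of 74 in OCM1, where 0.102% were called higher and 0.0236% lower. By limma's unadjusted p below 0.05, 0 members passed in MUM2B and 5 in OCM1 (1 higher and 4 lower), and array weights gave 15 in MUM2B and 19 in OCM1. The matching shares of all tested genes were not counted, so these counts are not read as a result about the members. The smallest p-values in MUM2B belonged to MRPS16 (0.18 ± 0.20), MRPL38 (0.10 ± 0.11) and MRPL24 (0.21 ± 0.27) among positive values, and to MRPL49 (−0.23 ± 0.11), MRPL50 (−0.27 ± 0.20) and MRPS31 (−0.23 ± 0.17) among negative ones. In OCM1 they were MRPL17 (0.46 ± 0.19), MRPL57 (0.40 ± 0.18) and MRPL34 (0.51 ± 0.24), and MRPL42 (−0.32 ± 0.12), MRPS34 (−0.30 ± 0.12) and MRPL32 (−0.37 ± 0.15). MRPL1 was at −0.27 ± 0.55 in MUM2B and 0.041 ± 0.55 in OCM1. For the difference between the lines 0 of 74 members passed (0.0393% and 0.00786% of all genes), and 0 had an unadjusted p below 0.05. Its smallest p-values belonged to MRPL34 (0.65 ± 0.33), MRPS6 (0.99 ± 0.65) and MRPL57 (0.38 ± 0.25), and to MRPS17 (−0.44 ± 0.27), MRPL42 (−0.25 ± 0.17) and MRPS9 (−0.30 ± 0.23).

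The wild type lines differed in many members, in both directions, as they did in many of all tested genes. On replicates 2 and 3, 26 of 74 members were higher and 31 lower in OCM1 than in MUM2B (35.1% and 41.9%), where 35.2% and 29.5% of all tested genes were called. The share that was higher was thus not above that of all tested genes. The members' median difference was −0.050, against 0.065 over all tested genes. MRPS25 had 4172 and 4114 in OCM1, against 1237 and 952.4 in MUM2B (1.90 ± 0.13, limma adjusted p = 1.5e-07). MRPS21 had 8041 and 7891 in OCM1, against 2257 and 2311 in MUM2B (1.79 ± 0.11). MRPS6, which shares its locus with SLC5A3, had 4461 and 4750 in OCM1, against 1476 and 1480 in MUM2B (1.62 ± 0.11). These 3 small subunit genes were picked as the largest increases that passed on these same arrays. On replicate 1 MRPS6 had the opposite order, with 1571 in OCM1 and 3846 in MUM2B, and on all arrays it did not pass (0.65 ± 0.46, limma adjusted p = 0.33). MRPL34 (1.57 ± 0.10) and MRPL10 (0.98 ± 0.11) were higher as well. The summed signal of 8 epithelial markers was 2150 to 2394 in wild type OCM1 and 21932 to 36290 in wild type MUM2B, with EPCAM and CDH1 under 100 on all arrays of both, and its part in these differences was not tested.

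Lower in OCM1 were MRPL50 (−1.37 ± 0.12), with 569.6 and 474.3 in OCM1 against 1472 and 1319 in MUM2B, MRPS2 (−1.28 ± 0.092), with 1395 and 1289 against 3389 and 3219, and MRPL15 (−1.04 ± 0.12). MRPL1 (−0.84 ± 0.17) and MRPL18 (−0.77 ± 0.13) were lower too. For every member this comparison shares its MUM2B wild type arrays with the effect of CANT1 in MUM2B. The difference between the effects in the lines uses them too, so the 3 MRPL1 results are not independent. All 3 members on chromosome 9 (MRPL41, MRPL50 and MRPS2) and all 3 on chromosome 8 (MRPL13, MRPL15 and MRPS28) were lower in OCM1. The tested genes of these chromosomes had medians of −0.28 and −0.12. On some other chromosomes the members' median had the opposite sign to that of the tested genes. It was −0.34 against 0.0885 on chromosome 3, −0.36 against 0.30 on chromosome 7 and −0.33 against 0.11 on chromosome 17. A part of gene position in these differences was not tested. Of 58 other bright probe sets of the called members, 53 had the same sign.

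**Figure D4:**
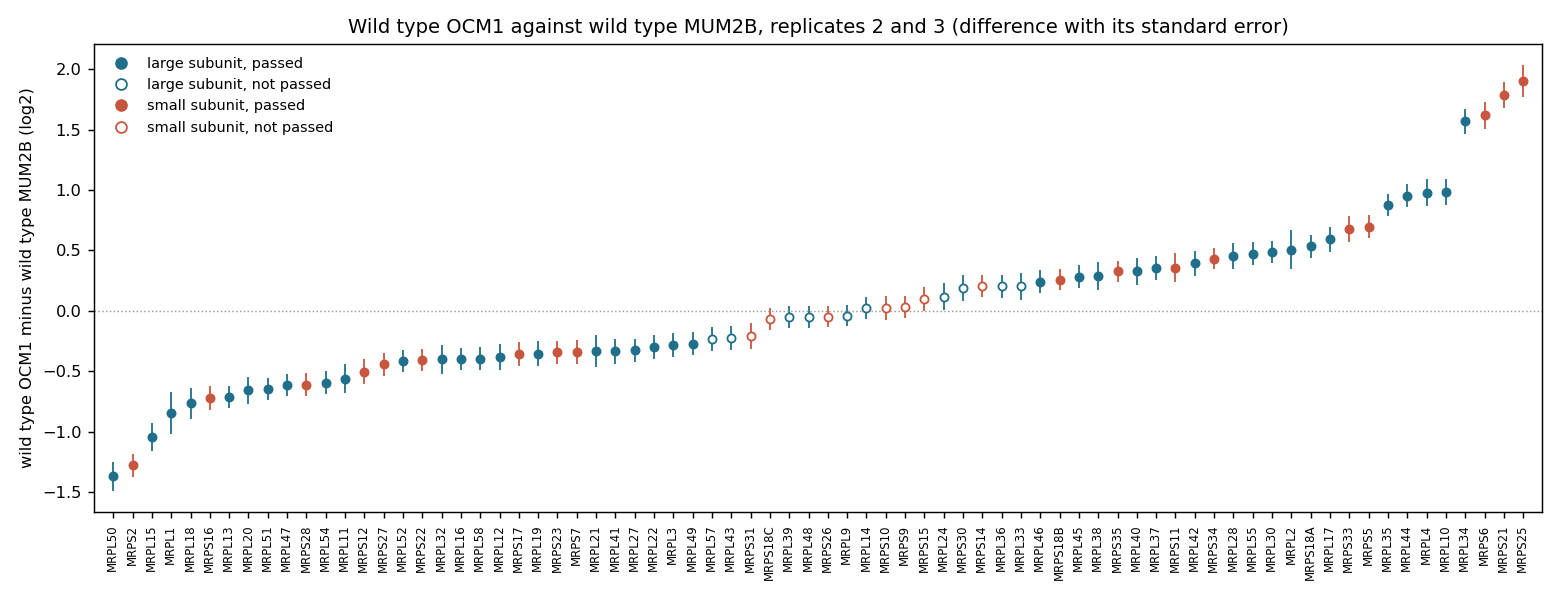
Wild type OCM1 minus wild type MUM2B (log2, with the standard error) for the 74 members on replicates 2 and 3, ordered by value, filled where limma called them. The values run from −1.37 for MRPL50 to 1.90 for MRPS25.

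On replicate 1, with 1 wild type array per line, 51 of 74 members were above zero in OCM1 minus MUM2B (median 0.26), where 50.2% of all tested genes were. Of the 57 members called on replicates 2 and 3, 41 had the same sign on replicate 1, and the matching share of all genes was not computed. MRPS25 (2.06) and MRPS21 (1.96) were as high there, while MRPL50 (−0.28) and MRPS2 (−0.21) were nearer zero. MRPL1 (1.85), MRPL18 (0.25) and MRPS6 (−1.27) had the opposite sign. These values rest on the OCM1 wild type array that stands apart.

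With all arrays 14 members were higher and 6 lower in OCM1 (18.9% and 8.11%), where 19.1% and 13.9% of all genes were called. Neither share of the members was above that of all genes. MRPS25 (1.95 ± 0.43), MRPS21 (1.84 ± 0.16), MRPL34 (1.20 ± 0.24), MRPL4 (1.04 ± 0.17) and MRPS33 (0.87 ± 0.14) were highest, and MRPL50 (−1.01 ± 0.20), MRPS2 (−0.92 ± 0.19), MRPL15 (−0.78 ± 0.22), MRPL13 (−0.72 ± 0.17) and MRPS22 (−0.52 ± 0.14) lowest. MRPL1 was at 0.054 ± 0.55. The count of 20 was 36 without MUM2B wild type replicate 1 and 13 without OCM1 wild type replicate 2.

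Other genes of mitochondrial translation were taken from lists. On replicates 2 and 3 in MUM2B, 6 of 17 translation factors fell and 0 rose (35.3%), where 10.6% of all tested genes fell and 14.4% rose. MRRF, the ribosome recycling factor, fell by 0.55 ± 0.11 and SLIRP, a messenger RNA binding protein, by 0.50 ± 0.10. Of 21 genes for aminoacyl-tRNA synthetases and the glutamyl-tRNA amidotransferase 3 fell, among them MARS2 (−0.64 ± 0.11) and CARS2 (−0.68 ± 0.13). Of 26 assembly factors 6 fell and 2 rose, DDX28 at −0.51 ± 0.091 and TFB1M at 0.49 ± 0.098. Of 17 transcription and biogenesis regulators 6 fell, with the helicase TWNK at −0.45 ± 0.088 and TFAM, which packages mitochondrial DNA, at −0.55 ± 0.11. Of 72 respiratory chain and ATP synthase genes 6 fell (8.33%), ATP5MC1 by 0.66 ± 0.12 and NDUFA5 by 0.44 ± 0.11. None of 4 other mitoribosome proteins passed, with GADD45GIP1 at −0.17 ± 0.096 and CHCHD1 at −0.076 ± 0.090.

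In OCM1, where 9.62% of all tested genes fell and 13.7% rose, 7 of 21 synthetase and amidotransferase genes fell, among them HARS2 by 0.71 ± 0.12 and QRSL1, an amidotransferase subunit, by 0.48 ± 0.090, and of 17 translation factors 1 fell, MRRF (−0.41 ± 0.11), while SLIRP was at −0.28 ± 0.10 without passing. Of 26 assembly factors 5 fell and 3 rose, AFG3L2 at −0.61 ± 0.089 and SPG7 at 0.68 ± 0.10, which form a protease together. Of 17 regulators only MYC fell (−0.77 ± 0.11), and ESRRA was at −0.26 ± 0.11 without passing. Of 72 respiratory chain and ATP synthase genes 7 rose (9.72%, below the share of all tested genes) and 1 fell, NDUFB1 by 0.41 ± 0.090 and NDUFA8 by 0.38 ± 0.098 upward. Of 4 other mitoribosome proteins GADD45GIP1 fell (−0.47 ± 0.096), and DAP3 was at −0.19 ± 0.096.

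**Figure D5:**
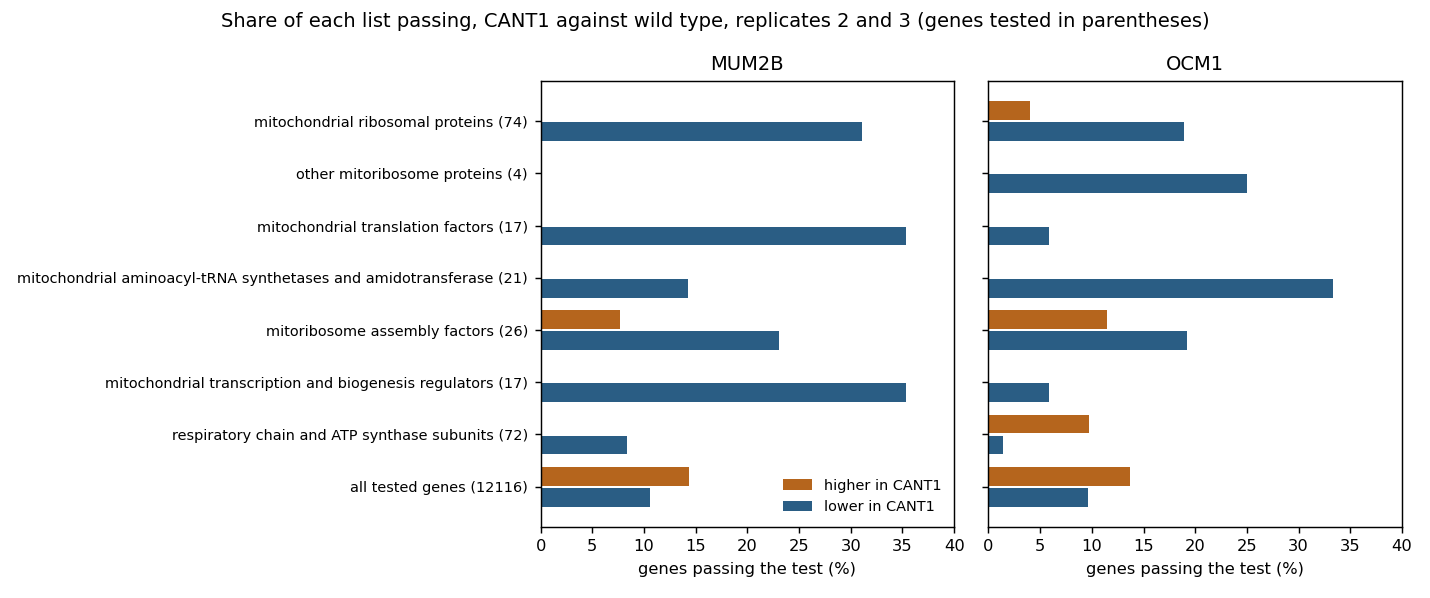
Share of genes passing (percent) in each list, CANT1 against wild type on replicates 2 and 3 of MUM2B and OCM1, with bars for higher and lower and the number of genes tested in parentheses. In MUM2B 31.1% of the members fell, against 10.6% of all tested genes.

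Promoters were read from RefSeq (GRCh38.p14), as 250 bases before to 50 after each listed start, for 67 of 74 members. A gene with several listed promoters was counted if any of them held the letters. The letters CCGGAAG, a site of the GABP and other ETS factors, occurred on either strand in 29 of 67 members (43.3%), in 20.8% of tested genes and in 12.2% of all listed genes. AAGATGGCG, a YY1 site, occurred in 17.9% of members and 4.5% of tested genes, and the NRF1 motif in 13.4% and 12.7%. A promoter may hold more than 1 of these. CCGGAAG was in 47.4% of the 19 members that fell in MUM2B and in 41.7% of the 48 others, and in 28.6% of the 14 that fell in OCM1 and 47.2% of the 53 others. The NRF1 motif was in 0% against 18.8% in MUM2B and in 0% against 17.0% in OCM1. AAGATGGCG was in 21.1% against 16.7% in MUM2B and in 28.6% against 15.1% in OCM1. These shares were not tested. A match describes the letters only. The 100 bases before the start are shown for the 2 members that fell most in MUM2B, for MRPL27, which fell in both lines, and for MRPS17, which fell most in OCM1, with CCGGAAG in capitals. They lie at chr4:77862730-77862829 (plus strand) for MRPL1, chr1:1407294-1407393 (minus) for MRPL20, chr17:50373185-50373284 (minus) for MRPL27 and chr7:55951777-55951876 (plus) for MRPS17.
MRPL1: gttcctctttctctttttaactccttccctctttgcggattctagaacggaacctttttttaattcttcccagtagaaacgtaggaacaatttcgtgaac
MRPL20: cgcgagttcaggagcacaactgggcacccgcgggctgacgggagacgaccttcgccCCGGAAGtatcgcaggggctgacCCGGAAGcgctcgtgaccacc
MRPL27: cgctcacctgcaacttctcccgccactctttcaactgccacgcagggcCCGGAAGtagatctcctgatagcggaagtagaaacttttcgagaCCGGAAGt
MRPS17: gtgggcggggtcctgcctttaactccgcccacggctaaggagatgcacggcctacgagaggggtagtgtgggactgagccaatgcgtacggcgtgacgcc
The windows of MRPL20 and MRPL27 each hold 2 such matches, and those of MRPL1 and MRPS17 hold 0. Of the other members that fell in both lines, the windows of MRPL12 and MRPS18B hold 0 and each window of MRPL47 holds 1.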

How the data were processed

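RNA of the 4 groups was hybridized to PrimeView arrays. The authors deposited 1 value per probe set and array, read here as log2 intensities from their range. Per the submitters' processing notes the tool was MAS5, and the log base and normalization are not given in the sources used here. Array medians of the deposited log2 values lay between 6.85 and 6.88 for replicate 1, and between 6.38 and 6.45 for the other arrays. Raising 2 to each value gave a signal. Each array was scaled so that its trimmed mean (2% off each end) was 500, and 32 was added before log2, which understates changes of dim genes. Of 49395 probe sets, 102 controls were left out, and 44988 named 1 gene, 1832 several and 2473 none by the platform annotation. A gene was tested if 3 or more arrays had a signal of 100 or more, which held for 12727 genes on all arrays and 12116 on replicates 2 and 3.

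Tests used limma 3.58.1 in R 4.3.3 (lmFit, eBayes, Benjamini-Hochberg over all tested genes at 0.05), with 1 term per group plus the set for all arrays (7 residual degrees of freedom), or 1 term per group for replicates 2 and 3 (4). The sets were compared with 1 term for each group within each set (4). The members and the lists were chosen with earlier results of these data known. Named were up to 5 members with the largest increase and decrease that passed, or, with none passing, the 3 of smallest p per direction, MRPL1 throughout, the 3 members of lowest and highest mean level, and up to 2 members of each list by smallest p. On data simulated for the MUM2B contrast with 12727 genes, planted changes of log2 1 were found in 95.6% with replicates 2 and 3, and changes of 0.5 in 48.4%. The simulated noise had the spread of replicates 2 and 3 and was independent for each gene and array. It held no shift shared by the genes of an array, so recovery on the real arrays may be lower. Alternatives are given in the closing section.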

Additional observations from a re-analysis of the deposited data

Results flagged for a closer look

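These results were picked out because the effect of CANT1 differed between the lines, by a limma test of the difference, or between the labelled sets, by a fit whose spread came from replicates 2 and 3 alone. The values are log2 differences.

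Between the lines on replicates 2 and 3 (OCM1 minus MUM2B), the effect was 1.38 for MRPL1, 0.69 for MRPS25, 0.61 for MRPS14, 0.57 for MRPS11, 0.55 for MRPL50 and −0.47 for MRPS30. With all arrays none of the 74 members passed this test, 0 had an unadjusted p below 0.05, and array weights gave 7, without a count over all tested genes.

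Between the sets in MUM2B (replicate 1 minus replicates 2 and 3), it was 3.07 for MRPL1, 2.10 for MRPS25, 1.52 for MRPL20, 1.45 for MRPS11, 1.29 for MRPL24 and −1.56 for MRPS6. In OCM1 it was 1.65 for MRPS25, 1.43 for MRPS28, 1.43 for MRPL44, 1.25 for MRPL35, 1.14 for MRPS35, −0.82 for MRPL55, −0.71 for MRPL43, −0.69 for MRPS26, −0.55 for MRPL33 and −0.46 for MRPS14. These values are of the brightest probe set per gene, and other bright probe sets gave smaller differences for MRPS25 and MRPL20. Some had the opposite sign for MRPS11 in MUM2B and for MRPL43 and MRPL33 in OCM1. Replicate 1 has 1 array per group, so its own spread was not measured and the differences between the sets are descriptions with the labels as given. Its growth label, its distribution of values and its ACTB 3′ to 5′ difference (2.15 to 2.51, against 0.47 to 0.91 on replicates 2 and 3) moved with the set. Their part in these differences was not tested.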

How the results depend on the processing

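Of 200 counts of called members under an alternative, 177 stayed within 1.5 times the reported count. The matching shares of all tested genes were not counted under the alternatives. Array weights on all arrays gave 15 called in MUM2B, 19 in OCM1, 7 for the difference between the lines and 59 for the wild type lines (on all arrays that weighting stopped before it converged), and no set term gave 11 for the wild type lines. For the difference between the lines on replicates 2 and 3 the count of 8 was 3 with quantile normalization, 5 with no filter and 13 with an intensity trend. With an array left out, the counts ran from 0 to 0 for both lines and their difference on all arrays, from 13 to 36 for the wild type lines on all arrays, from 2 to 19 for MUM2B, from 2 to 16 for OCM1, from 2 to 10 for their difference and from 44 to 57 for the wild type lines on replicates 2 and 3, from 32 to 41 for the sets in MUM2B and from 28 to 35 in OCM1. An arm left with 1 array was assumed to vary like the other groups, and the set test could not be fitted without a replicate 1 array of the same line.

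Of 55 called named results, 34 were called in every alternative and 0 changed sign. Of 70 lost calls, 53 came with an array left out and 17 under other alternatives, and 10 values that had not passed did so with array weights. Signs changed only for named values that had not passed. With array weights MRPL24 in MUM2B was −0.10 and MRPL1 between the wild type lines −0.77 (limma adjusted p = 0.0034). With an array left out MRPL24 ran from −0.22 to 0.39 and MRPS16 from −0.10 to 0.32 in MUM2B. MRPL1 on all arrays ran from −1.19 to 0.14 in MUM2B, from −0.17 to 0.31 in OCM1, from −0.095 to 1.23 for the difference, and from −0.87 (limma adjusted p = 0.011, without MUM2B wild type replicate 1) to 0.46 between the wild type lines. With the mean of all probe sets MRPL1 between the sets in OCM1 was 0.20. The cause was not tested.

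With a replicate block the counts were 0, 0, 0 and 19 on all arrays (MUM2B, OCM1, their difference, the wild type lines), 21, 15, 7 and 57 on replicates 2 and 3, and 40 and 34 for the sets, and no count moved by over 1.5 times. Deviations of same-numbered arrays correlated at 0.24, 0.465 and 0.03 in MUM2B and 0.171, 0.141 and 0.138 in OCM1, above 0.1 for every number only in OCM1, and at 0.198 in MUM2B and −0.125 in OCM1 over replicates 2 and 3 alone, so the numbers were not taken as pairs.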
